A study of Mus musculus with 6 samples.

Results

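Each microRNA (miRNA) hairpin has a 5′ and a 3′ arm, and 10 reporters of the array read both arms of 5 mouse hairpins: miR-149, miR-328, miR-324, miR-151 and miR-346. The 10 are among 1078 reporters, and the 5 hairpins among 393 for which both arms are on the array by name. The members are mmu-miR-149 and mmu-miR-149*, mmu-miR-328 and mmu-miR-328*, mmu-miR-324-5p and mmu-miR-324-3p, mmu-miR-151-5p and mmu-miR-151-3p, and mmu-miR-346 and mmu-miR-346*, written without the species prefix from here on. They were selected on their measured densities in these same cultures, as hairpins with both arms above background and at least 1 arm changed by TNF-α. The treatment differences of the 10 reporters, and the arm ratios made from them, are therefore given as descriptions. Where a member is said below to lie past or short of the threshold of the fit over all reporters or hairpins, this restates the choice or shows how a value moves with the processing, and is no test of the member. By the same criteria applied again, 25 hairpins had both arms clear of background, 12 of these had at least 1 changed arm, and the 5 hairpins are among the 12. The label holds only in part, because miR-149 exceeded background on the 3 control arrays and on no TNF-α array, and miR-324-3p on the 3 control arrays and 2 TNF-α arrays. The other 8 reporters exceeded it on all 6 arrays.

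The cells were smooth muscle cells that had been taken from the abdominal aorta (C57BL/6 mice, 8 weeks old) and cultured for several passages. The study set 3 untreated cultures beside 3 cultures given TNF-α, a cytokine of inflammation that acts on the vessel wall. The dose and duration are not given in the sources consulted. Per the labels the cultures were grown independently, and every culture shares the strain, age, vessel and passaging.

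A miRNA gene is transcribed as a hairpin that is cut to a short duplex of its arms. One strand of the duplex is usually loaded into an Argonaute protein and guides it to mRNAs that match the seed, bases 2 to 8, while the other strand is mostly degraded. Which arm is kept, and how stable it is, can differ between cell types, so arms of 1 transcript need not move together. In the older names used by the array, an asterisk marks the arm that was thought to be the minor one.

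RefSeq sequences (build GRCm38.p6) were found for 6 of the 10 members, and they are shown because the arms of these hairpins differ in base composition and in seed. The hairpins of miR-149 (chr1:92850378-92850443), miR-324 (chr11:70012043-70012131) and miR-346 (chr14:34894609-34894706), all on the plus strand, are printed 5′ to 3′ with both mature arms in capitals.
mir-149 hairpin: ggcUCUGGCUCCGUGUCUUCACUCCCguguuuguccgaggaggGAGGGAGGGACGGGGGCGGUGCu
mir-324 hairpin: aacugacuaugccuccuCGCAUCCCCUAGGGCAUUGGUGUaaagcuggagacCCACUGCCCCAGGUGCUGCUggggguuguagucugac
mir-346 hairpin: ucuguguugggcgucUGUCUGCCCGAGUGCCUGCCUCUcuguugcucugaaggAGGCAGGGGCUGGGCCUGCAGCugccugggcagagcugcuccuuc

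The mature arms are printed with the seed in capitals, under the array's name and the arm.
miR-149 (5p): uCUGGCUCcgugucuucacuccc
miR-149* (3p): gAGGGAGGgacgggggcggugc
miR-324-5p: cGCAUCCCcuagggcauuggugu
miR-324-3p: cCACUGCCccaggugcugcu
miR-346 (5p): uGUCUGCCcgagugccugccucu
miR-346* (3p): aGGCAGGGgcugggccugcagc

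No seed was shared among the 6 arms. The seed of miR-149* occurs in 3 other mature miRNAs of the table and that of miR-346* in 1. None of these is on the array under the same name, although older-style reporters of the miR-1943 hairpin, the source of 1 of the 3, are present and were not matched to an arm. The seeds of the other 4 arms occur in none. In each of the 3 hairpins the 3′ arm was the richer in G and C, at 81.8% against 60.9% for miR-149, 70% against 60.9% for miR-324 and 77.3% against 65.2% for miR-346. The median of all 1738 mature entries is 52.2%, and only 1.04% of them reach the share of miR-149*, which holds 15 G among 22 bases with a run of 5. In the minimum energy fold computed with RNAfold, 17 base pairs joined the arms of miR-149, 15 those of miR-324 and 17 those of miR-346. By the gene table of the same build, each hairpin overlaps the span of a protein-coding gene: miR-149 that of Gpc1, which encodes the cell surface proteoglycan glypican-1, miR-151 that of Ptk2, which encodes focal adhesion kinase, miR-324 that of Acadvl, an enzyme of mitochondrial fatty acid oxidation, miR-328 that of Elmo3 and miR-346 that of Grid1. The strand of these genes and their exons and introns were not analysed here.

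The values are median densities of Cy5, linear brightness with the background still in it. The background peak lay at 68.4 to 76.8 on control arrays and at 82.0 to 91.4 on TNF-α arrays, and the limit for calling a reporter above background (the peak plus 3 SD of the values below it) at 93.9 to 104 and 118 to 132. The background thus moved with the groups, and its part in the differences below was not tested. TNF-α and any technical difference between the 2 sets of arrays cannot be told apart. Of the smooth muscle markers, miR-143 (3135 to 3918 over all arrays) and miR-145 (4451 to 6900) were bright, miR-145* exceeded the limit on 1 control array and miR-143* on none. Of the markers of other cells, endothelial miR-126-3p (117 to 157) exceeded the limit on 3 control arrays and 2 TNF-α arrays, and endothelial miR-126-5p on no array. Striated muscle miR-206 was at 237 to 277 in controls and, without overlap, at 168 to 199 with TNF-α, while miR-133b exceeded the limit on 1 control array and miR-1a and miR-133a on no array. The part of these in the results was not tested. Likewise 4 of 5 blood markers, the liver marker and both neuronal markers exceeded it on no array.

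For each arm, log2 densities were corrected for background with an offset of 50 and quantile normalized. Changes are TNF-α minus control with the standard error (SE) of a limma fit over the 642 reporters tested. Folds given below are of these densities with the offset included, so their size depends on it. The choice of members used 7 changed arms: miR-149*, miR-328, miR-328* and miR-324-5p were higher with TNF-α, and miR-149, miR-151-5p and miR-346* lower. In the whole fit 22.7% of reporters passed an adjusted p of 0.05, 12.9% as higher and 9.81% as lower. The normalized values of the 7 did not overlap between the groups, as held for 40.0% of all tested reporters. In the deposited densities 5 of the 10 members did not overlap, against 43.8% of all tested, because miR-149 and miR-149* overlapped there. The median size of the change was 0.26 for the 10 members and 0.15 for all tested reporters. The members were chosen for a changed arm, so nothing is read from the larger value. Nearest to the threshold lay miR-151-5p on the inner side (-0.23 ± 0.07) and miR-346 on the outer (-0.21 ± 0.10).

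**Figure D1:**
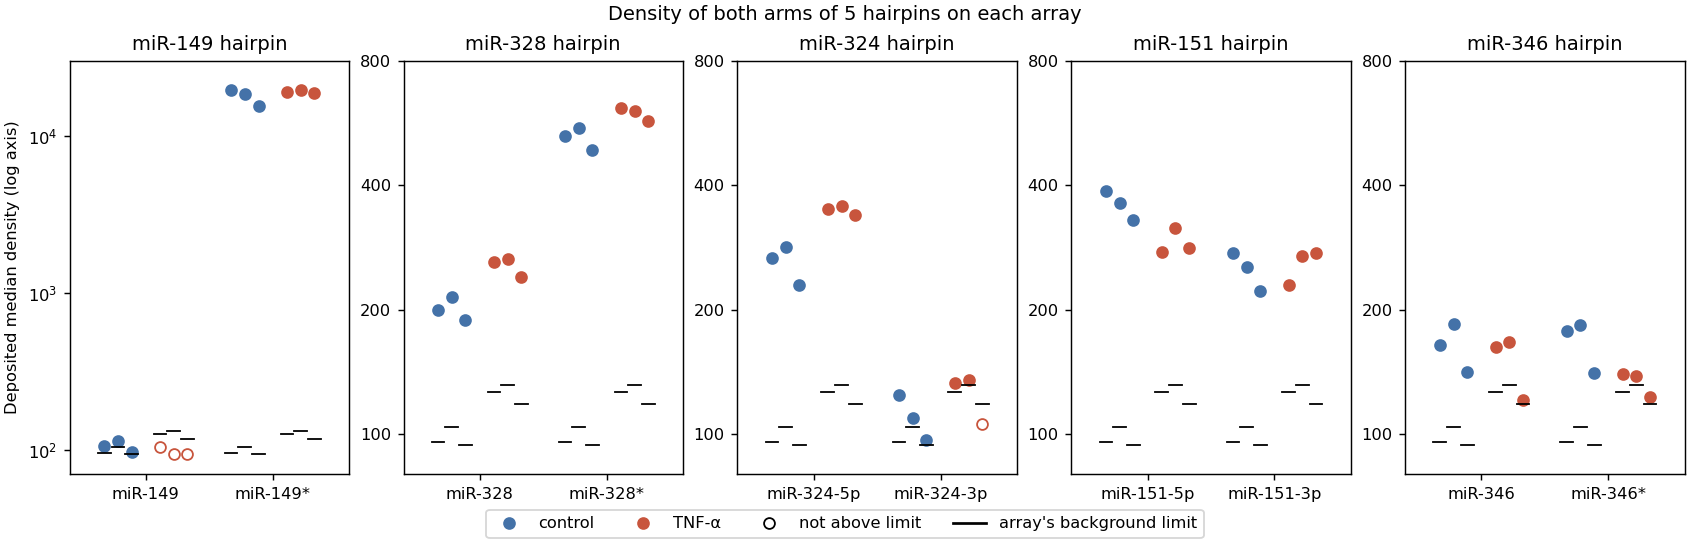
Deposited median density (log axis) of both arms of each hairpin on the 3 control arrays (blue) and the 3 TNF-α arrays (red), with the background limit of each array as a black bar and open circles for values not above it. miR-149 lies near the limit in controls and below it with TNF-α, both arms of miR-328 are higher with TNF-α, and the limits of the TNF-α arrays lie above those of the control arrays.

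The arm ratio is the difference of the normalized log2 densities of the arms on 1 array, the unstarred arm over the starred or the 5p over the 3p. The reporters of a hairpin differ in how strongly they bind and shine, so the ratio does not give the proportion of molecules, and only its shift between arrays is compared. Without quantile normalization the scale of an array cancels between the arms, and the background does not. In the fit over the 25 hairpins 44.0% passed an adjusted p of 0.05 in limma, 24.0% with a higher and 20.0% with a lower ratio. The SE of a shift in this fit is drawn mostly from the spread of all 25. It was 0.11 for each of the 5 hairpins and does not give the spread of a single hairpin. Of the 5 hairpins, miR-324 (higher) and miR-149 and miR-151 (lower) were past it, from which nothing is read, since the arms had been selected on the same contrast and miR-149 was clear of background through its control arrays alone. These 3 also had ratios that did not overlap between the groups, as held for 56.0% of the 25. The median size of the shift was 0.28 for the 5 hairpins and 0.20 for the other 20, and nothing is read from this either, for the same reason.

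In the miR-149 hairpin the starred arm was among the brightest reporters of every array and the unstarred arm lay near background. miR-149*, reported to act on cell survival in tumour cells, had densities of 19654, 18518 and 15574 on the control arrays and 19065, 19496 and 18679 on the TNF-α arrays. Control replicate 3 was the lowest, and the groups overlapped. On every control array this reporter was the 6th brightest of all and on every TNF-α array the 5th brightest. Quantile normalization gives all arrays the same value at a given rank, so its normalized level was 14.08 in each control and 14.30 in each TNF-α culture (SD 0 in both). The change of 0.22 (n = 3 per group) is therefore the step between these ranks. Its SE of 0.06 comes from the fit over all reporters and measures no spread between these cultures. The change was 0.10 without normalization, 0.0097 with cyclic loess and 0.067 in the authors' deposited processed values, and the call was lost under these. It was lost under 13 of 18 alternatives in all, including each array left out (0.20 to 0.23).

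miR-149, the unstarred arm, had densities of 106, 113 and 96.8 in controls and 103, 94.5 and 93.6 with TNF-α. The deposited values overlapped, and against each array's limit they were 1.03 to 1.11 times as high in controls and 0.718 to 0.816 times with TNF-α. After subtraction of the background peak 32.6 ± 4.08 (SD, n = 3) was left in controls and 9.10 ± 5.18 with TNF-α, the latter smaller than the SD deposited with this reporter's density on single arrays (10.5 to 14.6). The normalized level was 6.77 ± 0.04 in controls and 6.45 ± 0.09 with TNF-α, a difference of -0.32 ± 0.07. No fold is given, because the lowest level that counts as above background on the TNF-α arrays (6.88) was higher than the control mean. The difference was -0.16 without normalization and -0.052 with median scaling (arrays set to the same median of the reporters above the limit on all 6), and the call was lost there and without control replicate 2 (-0.29) or TNF-α replicate 2 (-0.27).

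The arm ratio of miR-149 over miR-149* was -7.32, -7.26 and -7.33 in controls and -7.82, -7.96 and -7.77 with TNF-α. All TNF-α arrays lay below all controls, with a shift of -0.55 ± 0.11. Since miR-149 was not above background with TNF-α, the ratio there is an upper bound, -7.42 against a control mean of -7.30. This ratio includes the step of 0.22 between the ranks of miR-149*, while the bound of miR-149 itself (6.88) lay above its control mean (6.77). Without normalization the bound of the ratio was -7.29 and the control mean -7.42, so that no shift can be stated. The measured shift was -0.26 without normalization, where the call was lost, and -0.32 with cyclic loess. It was -2.17 with the peak subtracted and neither offset nor normalization. Of the deposited densities, miR-149 was 0.00539 to 0.00622 of miR-149* in controls and 0.00485 to 0.00543 with TNF-α, ranges that overlap.

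**Figure D2:**
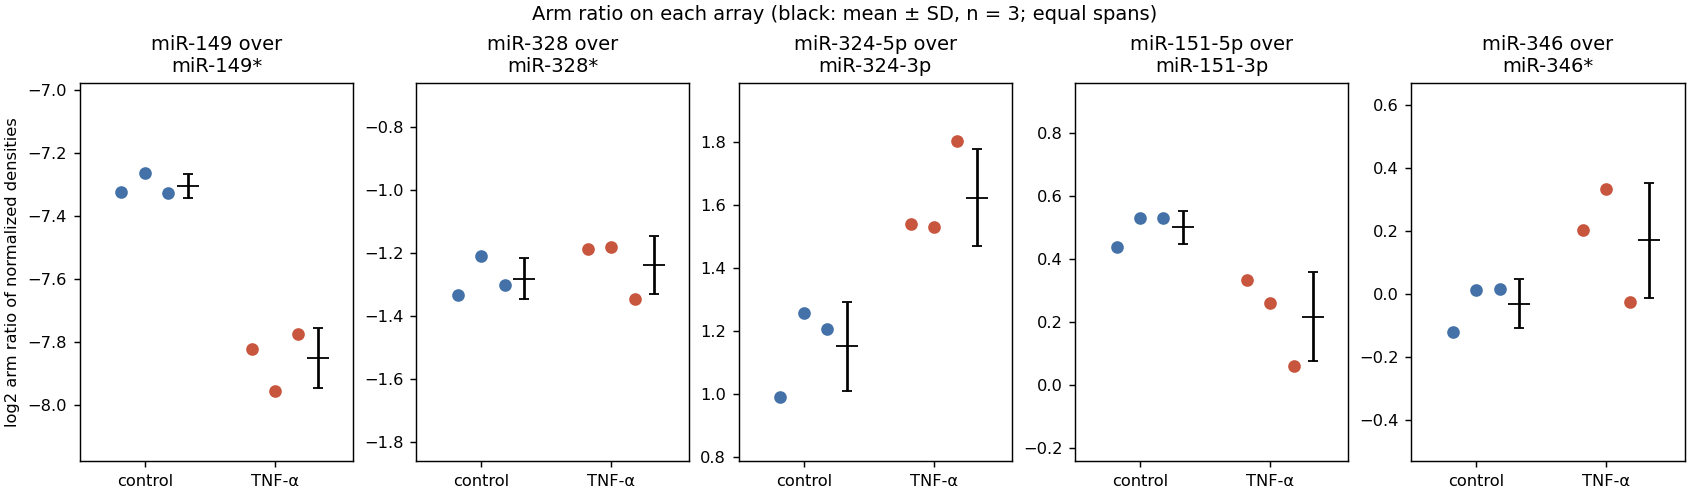
log2 arm ratio of the normalized densities on each array for the 5 hairpins, control (blue) and TNF-α (red), with the mean ± SD (n = 3) in black, on axes of equal span. The groups are apart for miR-149, miR-324 and miR-151 and overlap for miR-328 and miR-346.

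Both arms of miR-328 were higher with TNF-α. miR-328, which has been described both as a repressor of calcium channel mRNAs in heart muscle and as a decoy for an RNA-binding protein in leukaemia, had densities of 199, 215 and 189 in controls and 261, 266 and 241 with TNF-α. miR-328* had 528, 552 and 488 in controls and 617, 604 and 573 with TNF-α. In neither arm did the groups overlap. The normalized change was 0.34 ± 0.07 for miR-328 (1.26-fold) and 0.29 ± 0.08 for miR-328* (1.23-fold). Above the background peak, miR-328 stood at 129 ± 8.91 in controls and 168 ± 8.17 with TNF-α, and miR-328* at 450 ± 27.9 and 510 ± 17.4 (SD, n = 3). Beside these values, the limit of the arrays rose as well: the density of miR-328 was 2.02 to 2.09 times the limit in controls and 2.02 to 2.06 times with TNF-α, and that of miR-328* was 5.20 to 5.53 times and, without overlap, lower at 4.59 to 4.86 times. The change of miR-328 lay between 0.25 and 0.44 under the 18 alternatives. The call of miR-328* was lost under 7, among them no normalization (0.19), the processed table (0.17), an offset of 8 (0.32), and the omission of control replicate 1 (0.29), control replicate 2 (0.27), TNF-α replicate 1 (0.28) or TNF-α replicate 3 (0.26).

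The arm ratio of miR-328 over miR-328* was -1.34, -1.21 and -1.30 in controls and -1.19, -1.18 and -1.35 with TNF-α. The groups overlapped, with a shift of 0.04 ± 0.11. In the deposited densities, however, miR-328 was 0.378, 0.390 and 0.388 of its partner in controls and 0.424, 0.440 and 0.420 with TNF-α, without overlap, a shift of 0.15 on the log2 scale. It was 0.20 with the peak subtracted and no normalization, past the threshold there, and -0.0055 with the larger of the other offsets tried. The groups were also apart with the peak subtracted and in the processed table as deposited (0.198). With 32 added to the processed table the shift was 0.14 and short of the threshold.

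In the miR-324 hairpin the 5p arm was higher and the 3p arm close to background. miR-324-5p, described as a repressor of the Hedgehog pathway genes Smo and Gli1, had densities of 267, 284 and 229 in controls and 351, 356 and 339 with TNF-α. Every TNF-α culture was above every control. The normalized level went from 7.98 ± 0.04 to 8.47 ± 0.05 (SD, n = 3), a change of 0.49 ± 0.07 or 1.41-fold, and it lay between 0.39 and 0.57 under the 18 alternatives. Above the background peak the density was 187 ± 23.9 in controls and 261 ± 3.71 with TNF-α. Against each array's limit it was 2.44 to 2.80 times as high in controls and 2.70 to 2.87 times with TNF-α, ranges that overlap.

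miR-324-3p had densities of 124, 109 and 96.6 in controls and 133, 135 and 106 with TNF-α, or 1.03 to 1.30 and 0.898 to 1.05 times the limit. The groups overlapped, and the change was 0.02 ± 0.09. It was 0.26 with median scaling and turned to -0.014 without control replicate 2, -0.020 without control replicate 3, and -0.012 without TNF-α replicate 1 or 2.

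The arm ratio of miR-324-5p over miR-324-3p was 0.99, 1.26 and 1.21 in controls and 1.54, 1.53 and 1.80 with TNF-α. The groups were apart, with a shift of 0.47 ± 0.11. The highest ratio was that of TNF-α replicate 3, where miR-324-3p was not above the limit, and without that array the shift was 0.39. In the deposited densities the 5p arm was 2.15, 2.60 and 2.37 times its partner in controls and 2.63, 2.63 and 3.20 times with TNF-α, the highest control just below the lowest TNF-α array. Without normalization the shift was 0.27 and that in the processed intensities 0.40, and the call was lost in both. With the peak subtracted and no normalization it was 0.51 ± 0.32 and the groups overlapped.

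In the miR-151 hairpin the 5p arm was lower and the 3p arm was not. This hairpin is related to miR-28 and derives from a LINE-2 transposon, and miR-151-5p has been linked to cell migration together with its host gene Ptk2. miR-151-5p had densities of 387, 362 and 329 in controls and 275, 315 and 283 with TNF-α. The highest TNF-α culture was below the lowest control. The normalized level went from 8.44 ± 0.01 to 8.21 ± 0.08 (SD, n = 3), a change of -0.23 ± 0.07 (1.17-fold lower). Above the background peak it was 287 ± 26.6 in controls and 203 ± 19.6 with TNF-α. The value ranged from -0.49 in the processed table to -0.18, and the call was lost with median scaling (-0.21), an offset of 8 (-0.27), no filter and the replicate block, and with each array left out (-0.26 to -0.18).

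miR-151-3p had densities of 275, 254 and 223 in controls and 230, 270.25 and 275 with TNF-α. The groups overlapped almost wholly, and the change was 0.05 ± 0.10, turning to -0.090 in the processed table and to -0.047 without TNF-α replicate 3.

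The arm ratio of miR-151-5p over miR-151-3p was 0.44, 0.53 and 0.53 in controls and 0.33, 0.26 and 0.06 with TNF-α. The groups were apart, with TNF-α replicate 3 the lowest and a shift of -0.28 ± 0.11. In the deposited densities the 5p arm was 1.41, 1.43 and 1.48 times its partner in controls and 1.20, 1.165 and 1.03 times with TNF-α. The groups were also apart with the peak subtracted and in the processed table, and the shift lay between -0.43 and -0.20 under all 20 alternatives. Both arms of miR-151 exceeded the limit on all 6 arrays, at 1.81 to 4.06 times the limit. The call itself was lost with an offset of 8 (-0.33), with the 158 hairpins of the looser filter, with the replicate block, and when control replicate 1 (-0.31), 2 (-0.28) or 3 (-0.27) or TNF-α replicate 1 (-0.34) or 3 (-0.20) was left out.

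Of the 4 reporters of the related hairpins miR-28 and miR-708, miR-28 exceeded the limit on all arrays, at 132 to 159 in controls and 152 to 177 with TNF-α, with a change of 0.13 ± 0.07. miR-28*, miR-708 and miR-708* exceeded it on no array. Both arms of miR-28 were tested and 0 passed in either direction by limma, against 22.7% of all reporters.

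Both arms of miR-346 had lower means with TNF-α, and only the starred arm had passed. miR-346, reported as induced by bacterial lipopolysaccharide in synovial cells, had densities of 164, 185 and 141 in controls and 162, 168 and 121 with TNF-α. The groups overlapped, and the change was -0.21 ± 0.10. miR-346* had 178, 184 and 140.5 in controls and 140.02, 139 and 123 with TNF-α. The lowest control lay just above the highest TNF-α culture. Its change was -0.42 ± 0.08 (1.33-fold lower), and above the background peak it was at 94.6 ± 19.5 in controls and 45.7 ± 4.32 with TNF-α. The change lay between -0.63 and -0.24 under the 18 alternatives, and with median scaling (-0.24) the call was lost. On the TNF-α arrays the density of miR-346* was 1.04 to 1.10 times the limit.

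The arm ratio of miR-346 over miR-346* was -0.12, 0.01 and 0.02 in controls and 0.20, 0.33 and -0.03 with TNF-α. TNF-α replicate 3 lay among the controls, and the shift was 0.20 ± 0.11. On that array the density of miR-346 was 1.03 times the limit, with a deposited SD of 33.2. Without that array the shift was 0.30 and passed the threshold. In the deposited densities the ratio was 0.925 to 1.01 in controls and 0.985 to 1.21 with TNF-α.

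**Figure D3:**
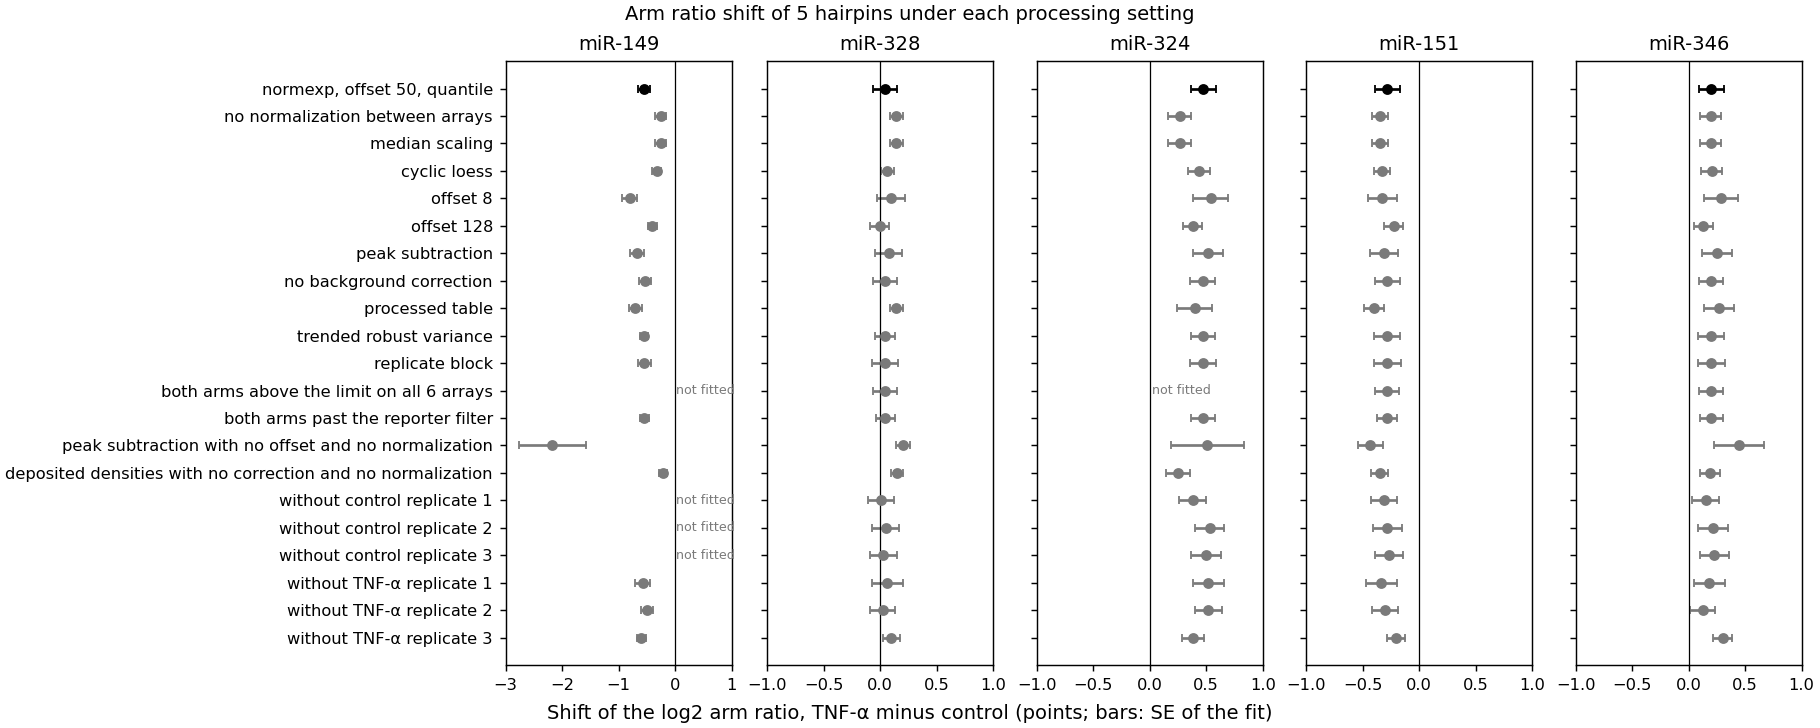
Shift of the log2 arm ratio (TNF-α minus control, points, with the SE as bars) of each hairpin under each processing setting; the first panel has a wider axis. The shift of miR-151 stays between -0.43 and -0.20, that of miR-149 ranges from -2.17 to -0.21, and that of miR-328 from -0.0055 to 0.20.

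Among the 25 hairpins the shifts ran from -1.21 for miR-341 over miR-341* to 0.70 for miR-466h-5p over miR-466h-3p. miR-149 had the second lowest value and miR-324 the third highest, next to miR-483 over miR-483* (-0.36) at the low end and miR-199a-5p over miR-199a-3p (0.67) at the high end. miR-341, miR-149, miR-324, miR-483 and miR-466h each had an arm that was not above the limit on some array. Both arms were above it on all 6 arrays in 12 hairpins, of which miR-328, miR-151 and miR-346 are 3.

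By the correlation of arm ratios over the 6 arrays, the hairpins most like miR-149 were miR-669c (r = 0.84) and miR-341 (0.82), and those most like miR-151 were miR-341 (0.97) and miR-483 (0.94). miR-324 was most like miR-322 and miR-23a (both 0.94), miR-346 most like miR-199a (0.78) and miR-214 (0.72), and miR-328 most like miR-199a and miR-669f (both 0.48). All of these ratios come from the same arrays, split in the same way into control and TNF-α, so the values are descriptions.

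**Figure D4:**
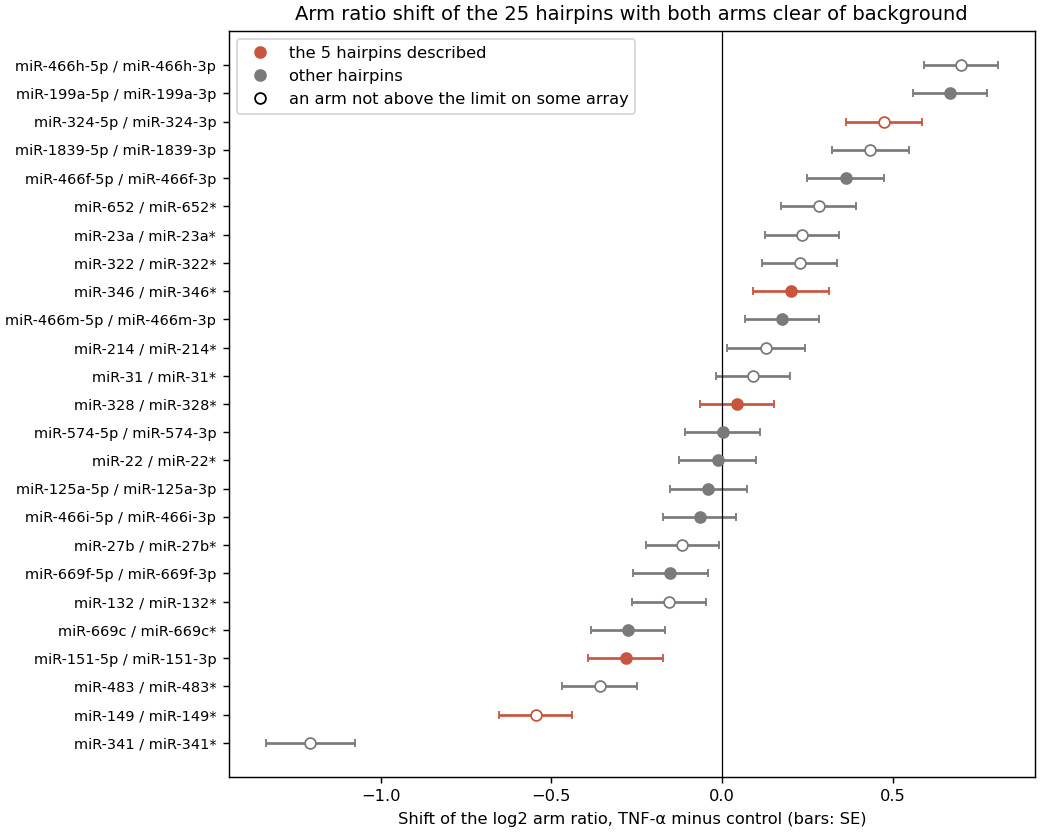
Shift of the log2 arm ratio (TNF-α minus control, points, with the SE as bars) of the 25 hairpins with both arms clear of background, ordered by size, with the 5 hairpins described in red and open circles where an arm was not above the limit on some array. The 5 are spread over the whole order, from -0.55 for miR-149 to 0.47 for miR-324.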

How the data were processed

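RNA of each culture was tailed, tagged and stained with Cy5, per the labels. The authors deposited for each array a median density and a standard deviation per reporter, which are intensities with no background subtracted, per the file headers and the values, and a processed table of the same arrays whose scaling is not given in the sources used here. Scanner and software are likewise not given there.

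Densities were corrected by normexp (offset 50) and quantile normalized (limma 3.58.1, R 4.3.3). Reporters entered the test with a corrected density of 32 or more, offset not counted, on 3 arrays or more, and were clear of background when above the limit on as many. limma's moderated test had group as its only term, with Benjamini-Hochberg adjustment. Arms were paired by name. Arm ratios were fitted over all hairpins with both arms clear. RNAfold 2.7.2 gave the folds. Alternatives were other normalizations, offsets, background treatments, filters and variance models, the processed table with 32 added, the omission of each array, and a replicate block.

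Members and lists were chosen with earlier results of these data known. Named are the 10 members, for each hairpin the 2 others with the most alike arm ratio, the 3 largest shifts each way, and the miR-28 list. The groups came from the treatment label. Replicates are numbered in accession order; the labels give the third replicate number to 2 TNF-α cultures.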

Additional observations from a re-analysis of the deposited data

How the results depend on the processing

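The number of arrays and the nearness of miR-149, miR-324-3p and miR-346* to background limit every value. Of 146 changed reporters (83 higher, 63 lower), median scaling made 291 (262 and 29), and 70 to 91 remained in number with an array left out. The median change of all reporters was 0.01, and with no normalization, median scaling and the processed table it was 0.14, 0.25 and -0.12. Of 25 hairpins 11 had a shifted arm ratio, against 4 of the 12 with both arms above the limit on all arrays, 28 of the 158 past the looser filter, and 4 to 12 with an array left out.

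The arm shift of miR-149 lost its call without normalization and with median scaling (-0.26 in both) and in uncorrected densities (-0.21), and could not be fitted without any 1 control array, since its unstarred arm was then not clear of background; without 1 TNF-α array it was -0.60 to -0.50. That of miR-324 lost it with no normalization or median scaling (0.27 in both), in the processed intensities (0.40), in uncorrected densities (0.25) and with the peak subtracted and no offset (0.51), and was 0.38 to 0.53 with an array left out. That of miR-151 lost it with an offset of 8 (-0.33), the looser filter (-0.28) and the replicate block (-0.28), and was -0.34 to -0.20 with an array left out. That of miR-328 turned to -0.0055 with the larger offset, passed with the peak subtracted and no offset (0.20), and was 0.01 to 0.10 with an array left out. That of miR-346 was 0.13 to 0.30 then, passing only without TNF-α replicate 3. miR-149 and miR-324 could not be fitted under the filter on all 6 arrays. miR-324-3p turned sign with 4 of the arrays left out (-0.020 to 0.092 over the 6), and miR-151-3p in the processed table (-0.090) and without TNF-α replicate 3 (-0.047 to 0.16 over the 6). The causes were not tested. Uncorrected densities without normalization, and the peak subtracted with no offset or normalization, were chosen after seeing the data.

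Whether the cultures were paired cannot be decided, because the replicate numbers only follow accession order. Deviations of same-numbered arrays from their group means correlated at 0.04, 0.02 and 0.15. For arrays with different numbers the values ran from -0.13 to 0.10. With the replicate block 5 of the 10 members were called instead of 7, without miR-149* (0.22) and miR-151-5p (-0.23), and 2 of the 5 hairpins instead of 3.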

Other observations

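Over the 194 tested reporters whose names match a mature entry of RefSeq exactly, the G and C content of the sequence correlated with the TNF-α change at r = -0.17, and over the 78 of them clear of background at r = -0.22. The matched reporters are a part of the 642 tested that is set by how they are named. miR-149, miR-149*, miR-346 and miR-346* are not in it, because RefSeq lists them under other names. These reporters share the same 6 arrays, and the values are descriptions.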
